A study of Rattus norvegicus with 12 samples.

Results

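The genes of mitosis and of the spindle were followed in organotypic slice co-cultures of rat entorhinal cortex and hippocampus after the fibres that join these regions had been cut. A list of 46 genes was set, and a spot on the array was taken for a gene where its platform symbol was that gene. Spots were found for 44 of the 46, with none for the kinesin genes Cenpe and Kif4a, so 44 of 14871 measured genes are described here. They were read by 70 spots, and 25 of them have 1 spot. The axotomized cultures had been cut after 15 days in vitro and were taken 1, 3 or 7 days later. The non-axotomized cultures were uncut and were taken at the same times. All cultures were wild type and grew in medium with horse serum. Per the labels the species is Rattus norvegicus, but the treatment protocol speaks of mice, and strain and donor age are not given in the sources used here. RNA of the whole co-culture was amplified and hybridised to 12 Agilent 2-colour arrays, so that every array compares RNA of axotomized cultures with RNA of non-axotomized cultures. Each day had 2 biological replicates, each measured on 2 arrays with the dyes exchanged, and the labels do not say whether a replicate was a culture, an animal or a pool.

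Values are log2 ratios, mean ± SD of the 2 replicates of a day (n = 2) after the 2 arrays of a replicate were averaged. A ratio above 0 is read as more RNA in the axotomized cultures. The titles of the arrays and their channel order make this direction likely, but it is not stated, and the other direction would turn every sign. A gene rose or fell where limma's moderated test against 0 gave a Benjamini-Hochberg adjusted p under 0.05 over all 14871 genes. The deposited table holds ratios and no signal, so no level of a gene can be given, and the markers of the tissue could not be checked for presence. In RNA of a whole culture, more cells of a type and more RNA per cell cannot be told apart. With 2 replicates of unstated source, the p-values measure the spread between these samples, which may be technical.

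A dividing cell makes a set of proteins only from late S phase to the end of mitosis. Cdk1 with cyclins A and B starts mitosis, kinetochores tie chromosomes to spindle microtubules, the spindle checkpoint holds back the anaphase-promoting complex until every chromosome is attached, and kinesins and midzone proteins then part the chromosomes and the daughter cells. Neurons do not divide, whereas microglia, astrocytes, oligodendrocyte precursors and progenitors of the hippocampus can. Microglia and astrocytes are known to proliferate in the hippocampus after a lesion of the entorhinal input. The RNAs of these genes rise and fall together in the cell cycle, and in textbook accounts many of their promoters carry the cell cycle genes homology region (CHR), which the MuvB complexes bind, and CCAAT boxes, which NF-Y binds.

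The promoters show what the genes share in sequence. RefSeq's table for the rat assembly GRCr8 held a window of 250 bases before to 50 bases after the gene start for 38 of the 44 genes, and Tpx2, Racgap1, Ccna2, Pbk, Ube2c and Aurkb were not in it. The gene start here is the one these windows use, and it is not always the outer end of the gene. The window of Nuf2, at 84255549-84255848 on chr13, lies inside the gene, which spans 84226448 to 84290957. Both strands were searched for the letters of the CHR, which are TTTGAA or, in a variant form, TTCGAA. The same was done for the box written CCAAT. The variant CHR reads the same on both strands and was counted once, and 2 pairs of CHR and CCAAT matches in these genes overlap. A CHR match was in 28 of 38 windows (73.7%), against 19.5% of all 27457 promoters in the table. CCAAT was in 28 of 38 (73.7%), against 37.7% of all promoters, and 2 or more CCAAT were in 52.6%, against 11.5%. Both motifs were in 23 of 38 (60.5%), against 7.83% of all promoters. Among the 16 with a window that rose at day 1, 10 had a CHR match (62.5%), and among the 22 that did not pass, 18 had one (81.8%). The median start of the matches was at -32 for the CHR and -104 for CCAAT, counted from the gene start as 0. These matches are letters in a window and were not tested as binding sites.

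The windows of the 6 genes with the smallest day 1 p among those in the table are shown, 5′ to 3′ on the gene's own strand, and that of Cdk1, chosen after its values were seen because it had the largest day 1 ratio. Capitals mark CHR and CCAAT matches on either strand, so that ATTGG is CCAAT and TTCAAA is TTTGAA on the other strand.
Nuf2 chr13:84255549-84255848, minus strand: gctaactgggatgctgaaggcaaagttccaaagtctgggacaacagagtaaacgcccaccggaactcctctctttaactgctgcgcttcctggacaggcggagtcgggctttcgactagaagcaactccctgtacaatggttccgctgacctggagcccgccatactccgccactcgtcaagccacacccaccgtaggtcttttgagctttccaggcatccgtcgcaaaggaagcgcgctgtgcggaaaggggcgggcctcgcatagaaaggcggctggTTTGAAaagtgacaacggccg
Ckap2 chr16:76541864-76542163, plus strand: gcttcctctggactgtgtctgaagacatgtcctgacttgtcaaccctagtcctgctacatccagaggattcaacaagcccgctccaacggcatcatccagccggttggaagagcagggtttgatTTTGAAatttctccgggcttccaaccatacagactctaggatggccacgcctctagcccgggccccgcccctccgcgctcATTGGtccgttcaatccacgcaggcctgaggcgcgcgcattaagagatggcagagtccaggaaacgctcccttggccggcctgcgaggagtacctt
Top2a chr10:84473044-84473343, minus strand: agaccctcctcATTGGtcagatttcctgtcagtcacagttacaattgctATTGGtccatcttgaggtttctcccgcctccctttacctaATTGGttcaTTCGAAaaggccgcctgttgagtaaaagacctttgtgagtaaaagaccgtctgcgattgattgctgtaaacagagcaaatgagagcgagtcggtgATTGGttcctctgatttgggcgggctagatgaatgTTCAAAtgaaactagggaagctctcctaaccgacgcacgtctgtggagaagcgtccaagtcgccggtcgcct
Kif20a chr18:26504172-26504471, plus strand: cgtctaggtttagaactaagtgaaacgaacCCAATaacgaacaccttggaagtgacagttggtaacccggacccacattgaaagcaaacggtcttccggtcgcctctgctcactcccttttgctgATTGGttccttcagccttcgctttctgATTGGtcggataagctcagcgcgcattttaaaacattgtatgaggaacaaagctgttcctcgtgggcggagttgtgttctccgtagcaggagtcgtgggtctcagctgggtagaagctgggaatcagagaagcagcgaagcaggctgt
Cdca3 chr4:159320953-159321252, plus strand: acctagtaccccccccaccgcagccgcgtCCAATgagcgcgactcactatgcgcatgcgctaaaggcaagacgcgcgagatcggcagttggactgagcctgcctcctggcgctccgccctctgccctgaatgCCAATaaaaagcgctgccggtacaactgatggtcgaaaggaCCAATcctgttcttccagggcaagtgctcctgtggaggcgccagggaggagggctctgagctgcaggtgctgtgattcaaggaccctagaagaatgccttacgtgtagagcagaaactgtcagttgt
Plk1 chr1:186147408-186147707, plus strand: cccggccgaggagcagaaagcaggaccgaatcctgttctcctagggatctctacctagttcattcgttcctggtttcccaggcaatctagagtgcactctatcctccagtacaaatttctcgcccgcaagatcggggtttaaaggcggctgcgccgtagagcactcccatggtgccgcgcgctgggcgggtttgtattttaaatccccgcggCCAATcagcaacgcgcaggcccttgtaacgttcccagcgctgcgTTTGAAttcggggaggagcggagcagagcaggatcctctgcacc
Cdk1 chr20:19265043-19265342, plus strand: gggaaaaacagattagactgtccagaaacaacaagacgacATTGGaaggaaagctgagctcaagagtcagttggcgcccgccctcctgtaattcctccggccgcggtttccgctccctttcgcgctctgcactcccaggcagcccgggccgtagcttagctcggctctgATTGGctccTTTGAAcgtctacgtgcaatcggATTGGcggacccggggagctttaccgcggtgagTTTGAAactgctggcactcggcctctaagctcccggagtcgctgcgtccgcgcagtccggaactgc
Top2a held 4 CCAAT and 2 CHR matches, and Cdk1 held 3 and 2. Kif20a and Cdca3 held 3 CCAAT each and no CHR match. Nuf2 had a single CHR match, at 29, and no CCAAT. Ckap2 and Plk1 had 1 match of each kind.

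At day 1 after axotomy, 19 of the 44 genes rose and none fell, while 0.37% of all genes tested rose and 0.222% fell. All 44 had a mean ratio above 0, against 56.4% of all genes, and their median was 0.361, against 0.00981 for all genes. The largest ratio was that of Cdk1, 1.87-fold on the linear scale, and the smallest that of Kif23, a kinesin of the midzone, at 0.012. At an unadjusted p under 0.05, 36 of the 44 were higher and 0 lower, against 1162 higher and 806 lower of all genes. Of the 50 largest ratios among all genes, 13 were of these genes, which make up 0.296% of the genes tested. The list was chosen with earlier results of these data known, so these counts are not independent of that choice. No gene of the list passed when any replicate of day 1 or day 3 was left out, and 5 passed without either replicate of day 7; with one replicate of day 1 left out the median was 0.281 or 0.429. After quantile normalization the median was 0.732, and the count ran from 0 with each spot alone to 32 with the 12 arrays fitted separately. The mean ratios of all 19 stayed above 0 under the other alternatives run; single spots give no mean.

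**Figure D1:**
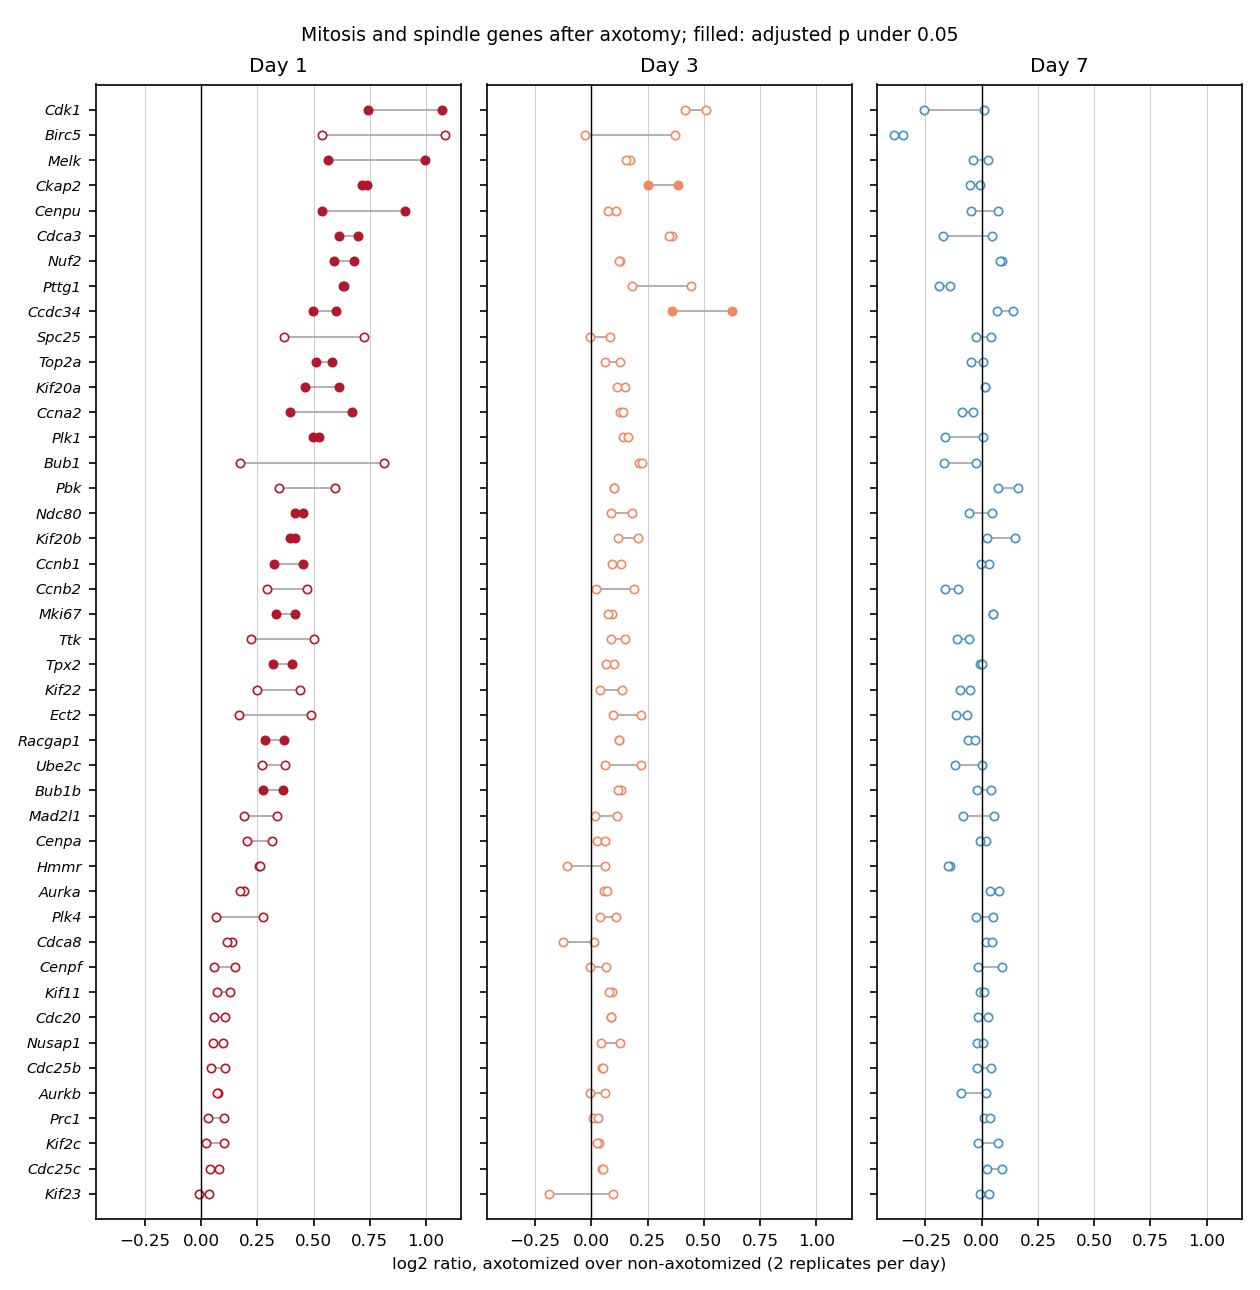
Log2 ratio of axotomized over non-axotomized cultures (x axis) for each of the 44 genes (rows, ordered by day 1 mean) at days 1, 3 and 7; points are the 2 replicates, joined by a line, and are filled where the gene passed the adjusted p of 0.05. The ratios lie right of 0 at day 1, except 1 replicate of Kif23, move towards 0 at day 3 and lie on both sides of 0 at day 7.

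Of the kinases, cyclins and phosphatases of mitotic entry, 6 of 12 rose at day 1, with a median of 0.429 over the 12. Cdk1, the kinase that drives entry into mitosis, had 1.07 and 0.74 in the 2 replicates (0.91 ± 0.23, adjusted p = 0.0316). Both replicates lay above those of every later day, at 0.51 and 0.42 at day 3 and -0.26 and 0.012 at day 7. Melk, a kinase of dividing and progenitor cells, had 1.00 and 0.57 (0.78 ± 0.305, adjusted p = 0.0451), a wide gap between its replicates. Cdca3, which helps to remove the Cdk1 inhibitor Wee1 at entry, had 0.70 and 0.61 (0.65 ± 0.060, adjusted p = 0.0259). Plk1, the polo kinase of entry and spindle assembly, had 0.50 and 0.53 (0.51 ± 0.021, adjusted p = 0.0281), with replicates close together. Of the cyclins that pair with Cdk1, Ccna2 and Ccnb1 rose. Ccna2 had 0.67 and 0.40 (0.53 ± 0.19, adjusted p = 0.0451), and Ccnb1 had 0.45 and 0.33 (0.39 ± 0.089, adjusted p = 0.0319). The other cyclin B gene, Ccnb2, had 0.47 and 0.30 and did not pass (adjusted p = 0.073). Pbk, a mitotic kinase, lay just outside the threshold with 0.59 and 0.35 (adjusted p = 0.0544). The kinases Aurka and Plk4 and the phosphatases Cdc25b and Cdc25c, which activate Cdk1, had means of 0.18, 0.17, 0.075 and 0.061 and did not pass.

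Of the 7 genes of the spindle checkpoint and its target, the anaphase-promoting complex, 2 rose, and the median was 0.323. Pttg1, the securin that holds back the separation of sister chromatids until anaphase, had 0.63 and 0.63 (0.63 ± 0.0012, adjusted p = 0.0292), almost the same value in both replicates. Its arrays had 0.763 and 0.756 with axotomized RNA in Cy5 and 0.5 and 0.51 with it in Cy3. The small SD is thus that of averages over the 2 dyes. Bub1b, the checkpoint protein BubR1, had 0.36 and 0.28 (0.32 ± 0.061, adjusted p = 0.0411). Its partner kinase Bub1 had 0.81 and 0.17, the widest gap of the list, and did not pass (adjusted p = 0.252). The checkpoint genes Ttk and Mad2l1 had 0.36 and 0.27, and the 2 partners of the complex, Ube2c and Cdc20, had 0.32 and 0.083; these 4 did not pass.

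Of 9 genes of the centromere, the kinetochore and the chromosomal passenger complex, 3 rose, and the median was 0.435. Nuf2 and Ndc80 are subunits of the complex that grips the microtubule end. Nuf2 had 0.68 and 0.59 (0.64 ± 0.063, adjusted p = 0.0143) and Ndc80 0.45 and 0.42 (0.43 ± 0.024, adjusted p = 0.0292), both with replicates close together. Spc25, of the same complex, had 0.72 and 0.37 and did not pass (adjusted p = 0.0704). Cenpu, a protein of the inner kinetochore, had 0.90 and 0.54 (0.72 ± 0.26, adjusted p = 0.0437). Birc5, the passenger protein survivin, had the second largest mean of the list at 0.81 ± 0.39, but its replicates at 1.08 and 0.54 lay far apart and it did not pass (adjusted p = 0.0991). The other passengers on the array, Cdca8 (borealin) and the kinase Aurkb, had 0.12 and 0.073, and the sign of Aurkb turned with the dyes. Cenpa, the centromeric histone, had 0.26 and Cenpf, a large kinetochore protein, 0.10, and none of these 4 passed.

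Of 6 kinesin motors, 2 rose, and the median was 0.222, the lowest of the role groups. Kif20a, a motor of the midzone needed for cytokinesis, had 0.61 and 0.46 (0.54 ± 0.11, adjusted p = 0.0246). Kif20b, a related motor of cytokinesis, had 0.42 and 0.40 (0.41 ± 0.013, adjusted p = 0.0339). The chromosome motor Kif22 had 0.44 and 0.25 and did not pass (adjusted p = 0.0749). Kif11, which pushes the spindle poles apart, the depolymerase Kif2c and Kif23 lay near 0 at 0.099, 0.062 and 0.012.

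Of 7 genes of spindle assembly, the midzone and cytokinesis, 3 rose, and the median was 0.326. Ckap2, a protein that stabilises spindle microtubules, had 0.74 and 0.72 (0.73 ± 0.014, adjusted p = 0.0143), and with Nuf2 it had the smallest adjusted p of the list. Its arrays differed by dye, at 1.06 and 1.17 with axotomized RNA in Cy5 and 0.41 and 0.266 with it in Cy3. The small SD is that of averages over the 2 dyes. Tpx2, the spindle assembly factor that activates Aurka, had 0.40 and 0.32 (0.36 ± 0.060, adjusted p = 0.0292). Racgap1, part of the centralspindlin complex of the midzone, had 0.37 and 0.29 (0.33 ± 0.057, adjusted p = 0.0325). Its partner in that complex is Kif23, which had a mean of 0.012. Ect2, the exchange factor that centralspindlin recruits, had 0.49 and 0.17 and did not pass (adjusted p = 0.184). Hmmr, a spindle pole protein, had 0.26, and Nusap1 and Prc1, which bundle microtubules, had 0.075 and 0.067; they did not pass.

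The remaining 3 genes all rose at day 1. Top2a, the topoisomerase that untangles chromosomes, had 0.58 and 0.51 (0.55 ± 0.049, adjusted p = 0.0171). Mki67, the coat protein of mitotic chromosomes and the common marker of cycling cells, had 0.33 and 0.42 (0.37 ± 0.060, adjusted p = 0.0281), which is 1.30-fold. Ccdc34, a coiled-coil protein, had 0.50 and 0.60 (0.55 ± 0.071, adjusted p = 0.0468). Its arrays also differed by dye, at 0.694 and 0.954 with axotomized RNA in Cy5 and 0.303 and 0.243 with it in Cy3. Over the whole list, the ratios of the 19 genes that rose ran from 0.319 to 0.906. All 19 were above 0 on each of the 4 arrays of the day, against 11.1% of all genes. The 19 were picked by averages of these same arrays, which favours this. The 25 that did not pass ran from 0.012 to 0.81, and 18 of them were above 0 on all 4 arrays. Replicate 1 had the higher ratio of the 2 in 38 of the 44 genes, with a median of 0.429, against 0.281 in replicate 2. Across the 44 genes the 2 replicates correlated with r = 0.83, against 0.48 across all genes; genes are not independent replicates and share their arrays.

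**Figure D2:**
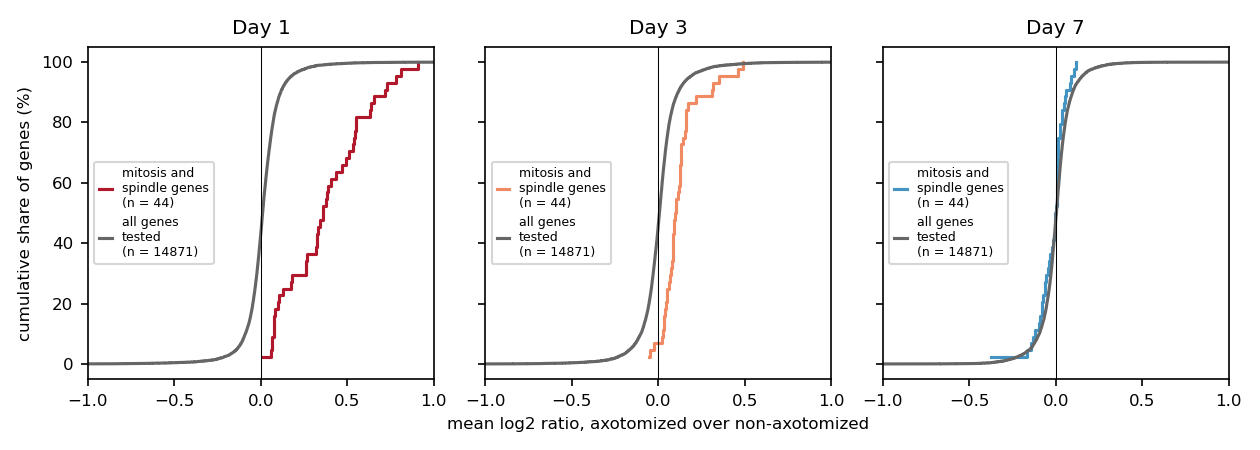
Cumulative share of genes (y axis, %) by mean log2 ratio of axotomized over non-axotomized cultures (x axis, shown from -1 to 1) at days 1, 3 and 7, for the 44 mitosis and spindle genes and all 14871 genes tested. The curve of the 44 genes lies right of that of all genes at day 1, with medians of 0.361 and 0.00981, and the curves come close at day 7, with medians of -0.00126 and 0.00335.

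At day 3 the ratios of 42 of the 44 genes were lower than at day 1. Of the 44, 2 rose and none fell, while 0.592% of all genes rose and 0.437% fell. The median was 0.0968, against 0.00626 for all genes, and 41 of the 44 had a mean above 0, against 53.8% of all genes. Ccdc34 had 0.36 and 0.63 (0.49 ± 0.19, adjusted p = 0.0468), and its range overlapped that of day 1. Ckap2 had 0.39 and 0.25 (0.32 ± 0.094, adjusted p = 0.0452), below both day 1 replicates. Neither passed when any one replicate of the study was left out. At an unadjusted p under 0.05, 16 genes of the list were higher and 0 lower, against 1161 higher and 985 lower of all genes. Cdk1, Cdca3 and Pttg1 had 0.51 and 0.42, 0.36 and 0.34 and 0.44 and 0.18 in the 2 replicates and did not pass (adjusted p = 0.107, 0.066 and 0.104). Among the 19 genes that rose at day 1, the day 3 log2 ratio was 12.8% of the day 1 ratio in Cenpu, 29.6% in the median and 89.7% in Ccdc34. These 19 were picked by their high day 1 ratios, which by itself favours a lower share at day 3.

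At day 7 no gene of the list passed, and 0% of all genes did in either direction. At an unadjusted p under 0.05, 0 of the 44 were higher and 3 lower, against 719 higher and 674 lower of all genes. In either direction that is 6.82% of the list, against 9.37% of all genes. The median was -0.00126, against 0.00335 for all genes, and 22 of the 44 were above 0, against 52.2% of all genes. Of the 3 genes at an unadjusted p under 0.05, Birc5 was lowest, with -0.39 and -0.35 in the replicates (adjusted p = 0.523). Pttg1 had -0.14 and -0.19 (adjusted p = 0.521), and Hmmr -0.14 and -0.15 (adjusted p = 0.447). Cdk1, highest at day 1, had -0.26 and 0.012, and the genes with the smallest day 1 p, Nuf2, Ckap2 and Top2a, had 0.088 and 0.080, -0.054 and -0.0090 and 0.0035 and -0.046. Above 0 in both replicates were 43 genes at day 1, 37 at day 3 and 10 at day 7, and below 0 in both were 0, 0 and 11. Of all genes, 35.5%, 32.1% and 31.7% were above 0 in both replicates, and 26%, 25.9% and 27.5% were below 0 in both, so the 11 genes at day 7 make up a share near that of all genes.

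The differences between the days were tested in the same fit. Between day 7 and day 1 the ratio fell in 3 genes of the list, as in 0.0605% of all genes. It fell by 0.76 in Ckap2 (adjusted p = 0.0409), by 0.57 in Top2a (adjusted p = 0.0486) and by 0.55 in Nuf2 (adjusted p = 0.0486), and none of the 3 passed when any one replicate was left out. The day 7 mean was below the day 1 mean in all 44 genes, with a median difference of -0.378, and 32 were lower at an unadjusted p under 0.05. Of all genes, 52.9% had a lower mean at day 7, the median difference was -0.00605, and 1074 were lower at such a p. Between day 3 and day 1 no gene of the list passed, and 0% of all genes did; 42 of the 44 had a lower mean at day 3, by a median of -0.251, and 29 were lower at an unadjusted p under 0.05. Of all genes, 53.1% had a lower mean at day 3, by a median of -0.0058, and 687 were lower at such a p. Between day 7 and day 3 no gene of the list passed, against 0.188% of all genes lower, with 38 of 44 lower at day 7, a median difference of -0.096 and 10 lower at an unadjusted p under 0.05. Of all genes, 51.5% were lower at day 7, with a median difference of -0.00323, and 985 were lower at such a p. In 32 of the 44 genes both day 1 replicates lay above both of day 3, against 20.7% of all genes. In 39, both day 1 replicates lay above both of day 7, against 24.9% of all genes. In 31, both day 3 replicates lay above both of day 7, against 21.9%.

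The 2 dye orientations gave the same sign for most genes at day 1. In Aurkb, Kif2c, Cdc20 and Kif23 the sign turned with the dyes in both replicates. The arrays of Aurkb had -0.306 and -0.294 with axotomized RNA in Cy5 and 0.459 and 0.434 with it in Cy3. With axotomized RNA in Cy5 the median of the 44 genes was 0.456 and 0.318 in the 2 replicates, and with it in Cy3 0.365 and 0.231. Of the 44, 37 were above 0 on all 4 arrays of day 1, 22 on those of day 3 and 3 on those of day 7, while 11.1%, 12.6% and 9.24% of all genes were. Across the 44 genes, the 2 arrays of a replicate correlated with r = 0.74 and 0.49 at day 1, 0.22 and 0.33 at day 3, and -0.019 and -0.024 at day 7. Across all genes r was 0.33 and -0.08 at day 1, 0.34 and 0.47 at day 3, and 0.089 and 0.23 at day 7. The list was thus below all genes at days 3 and 7. These correlations are across genes of the same RNA.

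**Figure D3:**
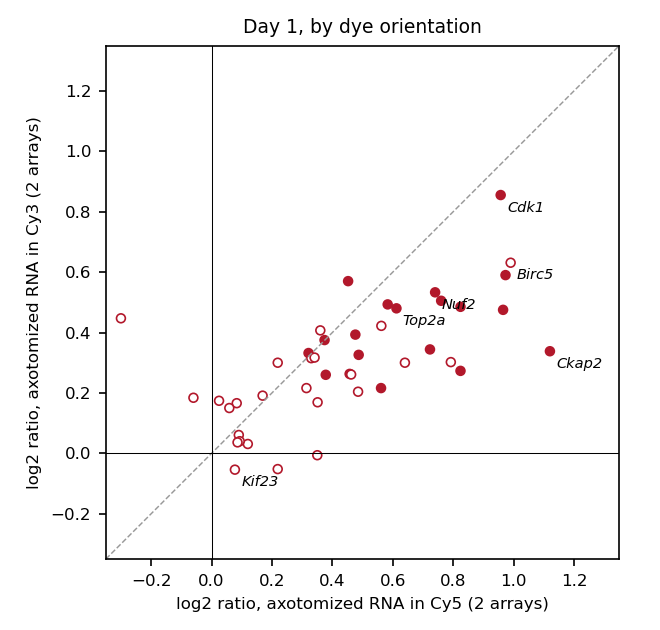
Day 1 log2 ratio of axotomized over non-axotomized cultures for each of the 44 genes, the mean of the 2 arrays with axotomized RNA in Cy3 (y axis) against the mean of the 2 with it in Cy5 (x axis); points are filled where the gene passed the adjusted p of 0.05, and the dashed line marks equal values. All 19 filled points lie above 0 on both axes, which their choice by the averages of these same arrays favours.

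Spots of the same gene did not always give the same ratio. Of the 70 spots, 67 were above 0 at day 1 and 49 of these had an unadjusted p under 0.05, and 0 spots were below 0 at such a p. No spot passed when each was tested alone, the smallest adjusted p being 0.0587. For 19 genes with 2 or more spots, all spots were above 0 in 16, and the gap between a gene's highest and lowest spot ran from 0.024 in Prc1 to 0.91 in Ect2, with a median of 0.459. The 3 with a spot below 0 were Ect2, Cdca8 and Plk4. In Ccna2 the 2 spots had 0.867 and 0.2, in Plk1 0.741 and 0.282, and in Top2a 0.71 and 0.382. The 3 spots of Bub1b had 0.598, 0.341 and 0.0162, and the 4 of Racgap1 ran from 0.114 to 0.732. The 2 spots of Cenpu lay close, at 0.767 and 0.673. In 12 genes some spots carry a RefSeq mRNA accession and another spot carries a different kind of accession, and in 12 of 12 the highest RefSeq spot was above the other. The highest of several spots is favoured in such a count, and in Ect2, Hmmr and Cenpf the lowest RefSeq spot, at -0.0651, 0.0876 and 0.0366, was below the other spot, at 0.212, 0.284 and 0.101. For Kif22 these were 0.666 and 0.0229, and for Mad2l1 0.526 and 0.00461. The mean over the spots of a gene was used throughout, so a spot near 0 lowers the value of its gene.

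**Figure D4:**
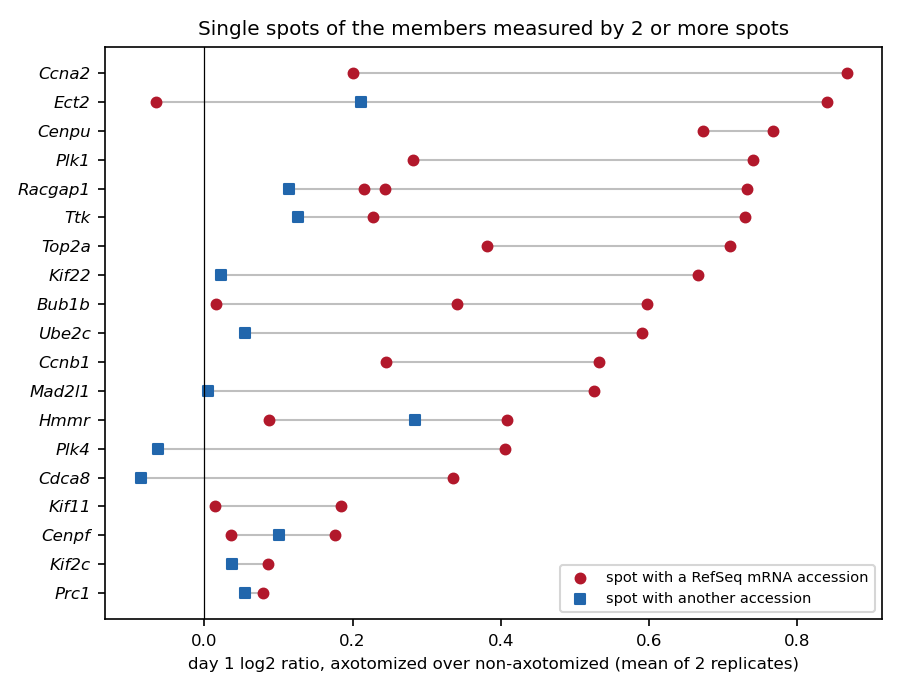
Day 1 log2 ratio of axotomized over non-axotomized cultures (x axis, mean of 2 replicates) of every spot of the 19 genes with 2 or more spots (rows); circles are spots with a RefSeq mRNA accession, squares spots with another accession. Spots of one gene spread by up to 0.91 (Ect2), and 16 of the 19 genes have all spots above 0.

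Other genes of the same process were read from further lists. Of 47 other mitosis genes, 6 rose at day 1 and 0 fell, with a median of 0.139. They were the kinesins Kif15 and Kifc1, with 0.60 and 0.43 and with 0.48 and 0.46 in the 2 replicates (adjusted p = 0.0316 and 0.0143), the microtubule-bound p53 regulator Gtse1 with 0.54 and 0.44 (adjusted p = 0.0399), the kinetochore protein Cenpt with 0.46 and 0.33 (adjusted p = 0.0399), and Mis18a and Dlgap5. Of 34 DNA replication genes, 2 rose and 0 fell, with a median of 0.156. These were Chaf1b, a histone chaperone of new DNA, with 0.85 and 0.55 (adjusted p = 0.0394), and Pold1, the catalytic subunit of polymerase delta, with 0.39 and 0.35 (adjusted p = 0.0394). Of 17 transcription factors tied to these genes, Foxm1, which drives genes of late G2 and mitosis, rose, with 0.49 and 0.31 (adjusted p = 0.0462); the median of the 17 was 0.0378. Myc, a growth-promoting factor of the same list named after its values were seen, had the lowest ratio, with -0.92 and -1.01, and did not pass (adjusted p = 0.073). Of 14 cyclins and kinases of G1 and S phase none passed, with a median of 0.0446, and the smallest p values were those of Ccne1 at 0.24 ± 0.099 (adjusted p = 0.118) and Ccne2 at 0.17 ± 0.15 (adjusted p = 0.309). None of 11 condensin and cohesin genes passed, with Ncapd2 at 0.23 ± 0.015 and Smc3 at 0.084 ± 0.031 (adjusted p = 0.0891 and 0.363). None of 12 subunits of the anaphase-promoting complex passed, with Cdc26 at 0.22 ± 0.17 and Cdc23 at 0.20 ± 0.081 (adjusted p = 0.239 and 0.327). At an unadjusted p under 0.05, 2 genes were higher and 0 lower in each of these 3 lists. These make up 14.3%, 18.2% and 16.7% of the lists, near the 13.2% of all genes in either direction.

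Among 19 cell cycle inhibitors and p53 targets, 1 gene fell at day 1 and none rose, with a median of -0.0718. Gadd45g, a stress-induced gene that restrains Cdk1, had -0.92 and -0.77 in the 2 replicates (adjusted p = 0.0316). Its relative Gadd45a had -0.50 and -0.25 at day 1 and did not pass (adjusted p = 0.151), and it fell at day 3, with -0.67 and -0.45 (adjusted p = 0.0494). At day 3 the other mitosis, replication, transcription factor, G1 and S, condensin and cohesin, and complex subunit lists had 0 genes past the threshold in either direction, with medians between -0.0345 and 0.0407.

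Markers of the cell types that a slice holds were read beside these results. Of 15 microglia and macrophage markers, 14 were above 0 at day 1 and 0 passed, with ratios from -0.025 (Tmem119) to 0.50 (P2ry12), a median of 0.207 and 8 higher at an unadjusted p under 0.05. At day 3 all 15 were above 0, with a median of 0.227, and at day 7 1 of 15, with a median of -0.167 and 8 lower at an unadjusted p under 0.05. Of all genes, 56.4%, 53.8% and 52.2% were above 0 at days 1, 3 and 7. Such a p in either direction was found in 13.2% of all genes at day 1 and 9.37% at day 7. Trem2 had 0.46 and 0.40 at day 1, 0.46 and 0.20 at day 3 and -0.34 and -0.35 at day 7, and Cx3cr1 had 0.16 and 0.25, 0.29 and 0.15 and -0.071 and -0.15. The mitosis genes had lower means at day 3 than at day 1 in 42 of 44 cases. The part of microglia in the mitosis ratios was not tested. The 11 astrocyte markers had medians of 0.0272, 0.281 and -0.0105 at days 1, 3 and 7, and at day 3 Glul, Gjb6 and Aqp4 rose, to 0.75 ± 0.023, 0.40 ± 0.016 and 0.34 ± 0.10. The 5 oligodendrocyte precursor markers had medians of 0.0349, 0.547 and 0.0517, and Sox10 and Pdgfra rose at day 3, to 0.63 ± 0.087 and 0.62 ± 0.17. The 8 neural progenitor markers had medians of 0.0256, 0.141 and -0.0589, and the 9 oligodendrocyte markers -0.0292, 0.242 and 0.283, with 0 genes past the threshold on any day. The 12 neuron markers had -0.0349, 0.07 and 0.14, and the 9 endothelium markers -0.00831, 0.00524 and 0.00781, again with none past it. Among 9 fibroblast and meningeal markers Ogn rose at day 3, to 0.44 ± 0.060, and the medians were 0.0289, 0.176 and -0.0647. Of 4 erythroid markers, Hbb-b1 rose at day 1, with 0.78 and 1.34 in the replicates. The medians of the 4 were 0.0506, 0.0077 and -0.00709 at days 1, 3 and 7. At day 1 Hbb had 0.0033, and 1 of the 4 was higher at an unadjusted p under 0.05. The 8 choroid plexus and ependyma markers had medians of 0.0475, 0.193 and -0.173, led by Ttr, whose day 1 replicates had -0.021 and 1.86; the part of these other cells in the mitosis ratios was not tested.

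**Figure D5:**
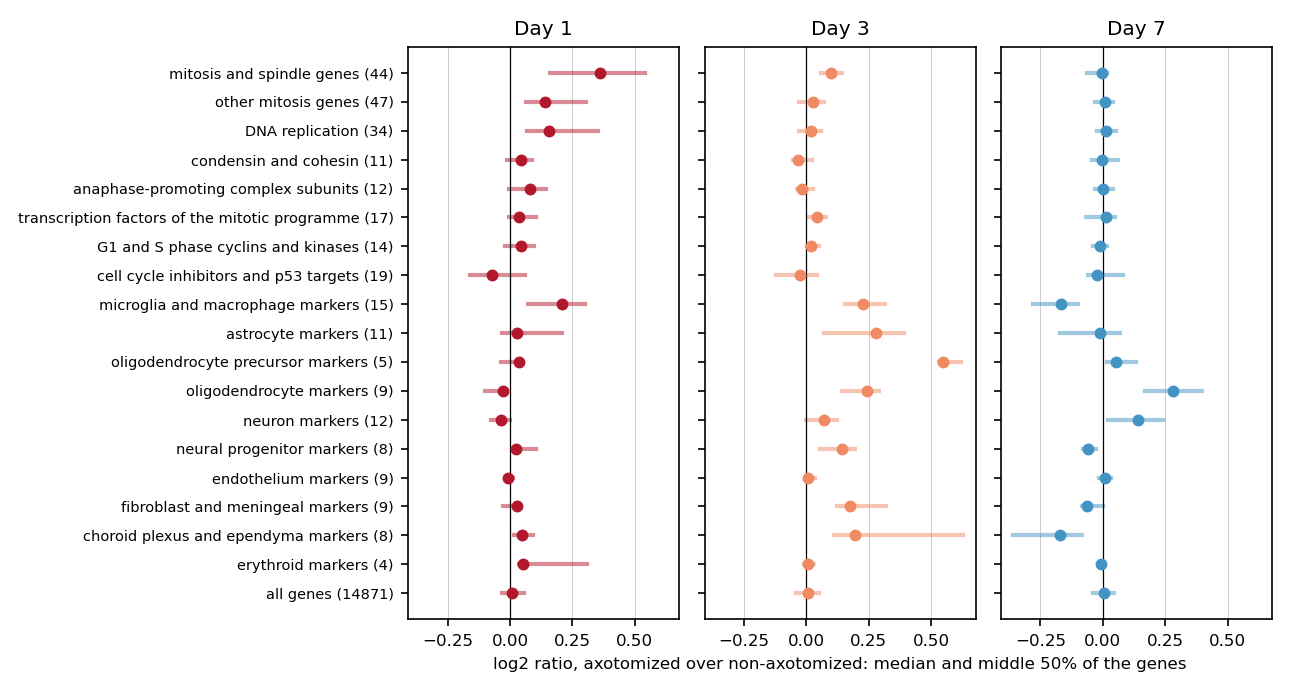
Median (point) and middle 50% (bar) of the gene-level log2 ratios, axotomized against non-axotomized (x axis), for each list (rows, number of measured genes in brackets) at days 1, 3 and 7. The mitosis and spindle genes have the highest median of the lists at day 1, 0.361, while at day 3 the oligodendrocyte precursor markers have the highest, 0.547. The lists were chosen with earlier results of these data known, so the order is not an independent result.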

How the data were processed

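Log2 ratios of 44290 spots on 12 2-colour arrays were taken from the table the authors deposited. The authors' tool was limma, per the submitters' processing notes; its version, background correction and normalization are not given in the sources used here. Base 2 is by limma's convention. The columns were already centred, with medians from -0.0216 to 0.0268; further scaling and the direction are unknown. On 733 spots, 731 of them with no gene, the ratio turns with the dyes by over 1 (median -4.58 with axotomized RNA in Cy5 and 3.92 in Cy3), so all columns likely run in 1 RNA direction. The number of arrays limits the precision, and dim spots could not be filtered without signals.

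Spots with exactly 1 platform symbol (23535) were averaged per gene, 48 spots with several symbols and 20707 with none were left out, and no alias was needed. The 2 arrays of a replicate were averaged, and 6 values went into limma 3.58.1 (R 4.3.3, 3 residual and 2.72 prior degrees of freedom), per day against 0 and between days, two-sided, adjusted over 14871 genes. Values were given for every gene of the list past the threshold and for the 2 with the smallest day 1 p per role, and from each other list for up to 4 that passed at any day or, where none did, up to 2. The fit was tested on simulated data. Members, roles and lists were chosen with earlier results of these data known. The alternatives were left-out replicates, blocks, dyes, normalization, spot rules and variance moderation. Promoters came from RefSeq, GRCr8.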

Additional observations from a re-analysis of the deposited data

Results flagged for a closer look

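The ratio of axotomized over non-axotomized cultures differed between day 7 and day 1, by the test of that difference, in 3 of the 44 genes. The difference was -0.76 on the log2 scale for Ckap2 (adjusted p = 0.0409 in limma's test), with -0.054 and -0.0090 in the replicates of day 7, against 0.74 and 0.72 at day 1. It was -0.57 for Top2a (adjusted p = 0.0486), with 0.0035 and -0.046 at day 7, against 0.58 and 0.51 at day 1. It was -0.55 for Nuf2 (adjusted p = 0.0486), with 0.088 and 0.080 at day 7, against 0.68 and 0.59 at day 1. In all 3 genes both replicates of day 7 were below both of day 1, as in 24.9% of all genes. The 3 were picked by a test of these same values, so this adds no support. None of the 3 passed when any one replicate was left out.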

How the results depend on the processing

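With any one replicate left out, the number of genes higher at day 1 was 0 to 5 in place of 19, at day 3 0 in place of 2, and lower at day 7 than at day 1 0 in place of 3. The construction leaves 1 fewer sample for the spread. The medians then ran from 0.281 to 0.429 at day 1 and from -0.0184 to 0.00309 at day 7, the sign turning without day 7 replicate 1.

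With the replicate block, 9 genes were higher at day 1, 1 at day 3 and 0 lower at day 7 than at day 1. Deviations of same-numbered replicates correlated with r = 0.26, -0.068 and 0.014 for days 1 and 3, 1 and 7, and 3 and 7. With 2 replicates a day, these correlations cannot decide whether equal numbers pair the samples. With each day alone, 1 and 0 were higher at days 1 and 3. With all 12 arrays kept and the replicate as a random block, 32 and 5 were higher at days 1 and 3, and 10, 3 and 30 were lower at day 3 than day 1, day 7 than day 3 and day 7 than day 1; a dye term made these 31, 5, 6, 3 and 27.

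With axotomized RNA in Cy5 only, 10 were lower at day 7 than day 1 and the day 7 median was -0.0425. With it in Cy3 only, 8 were higher at day 1, 0 lower at day 7 than day 1, and the medians were 0.121 at day 3 and 0.0198 at day 7. With quantile normalization the day 1 median was 0.732 and that of day 7 0.00395, 0 were higher at day 3, and 11 and 15 were lower at day 3 and day 7 than at day 1; the day 1 count was again 19, 13 of them the same genes. Robust moderation gave 1 higher at day 3 and 1 lower at day 7 than day 1. With each spot alone, 0 genes passed at day 1, at day 3 or between day 7 and day 1. The cause was not tested for these.

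The 2 replicates a day and the absence of signal over background limit what can be called.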

Other observations

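Of the 55 genes that rose at day 1, 19 were mitosis and spindle genes (34.5%), 6 were other mitosis genes, 2 were replication genes, 1 was Foxm1 and 27 were in none of the cell cycle lists. The lists do not cover every cell cycle gene, so a gene outside them may still be one. The log2 ratios of these 27 ran from 0.26 (Tspan1) to 1.08 (Tcf19), and the next largest after Tcf19 were Hbb-b1 at 1.06, Cryab at 0.943 and Hmgb2 at 0.917. Among the genes of the list that did not pass at day 1, the passenger kinase Aurkb and the midzone kinesin Kif23 lay near 0, at 0.073 and 0.012, as did Prc1 at 0.067 and Cdc25c at 0.061. The mean of Aurkb averages arrays whose sign turned with the dyes, so it does not show an absence of change.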
